A study of Mus musculus with 6 samples.

Results

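The Arp2/3 complex genes are 10 rows of the deposited expression table: Actr2, Actr3, Actr3b, Arpc1a, Arpc1b, Arpc2, Arpc3, Arpc4, Arpc5 and Arpc5l. They were taken by gene symbol from 19590 named rows, and all 10 reached the mean of 1 TPM (transcript abundance corrected for length and scaled to the library) set for testing, as did 11980 genes in all. The set was chosen because Actr3b fell steeply in these same libraries, so the members' own changes are given as a description, without p-values. Whether a member passed the test's threshold, in any run, is likewise a description and is not used as support.

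The libraries came from Lewis lung carcinoma cells, a mouse lung tumour line carried in culture. One group of 3 libraries had an inducible scrambled shRNA, a hairpin with no intended target, and the other group of 3 had an inducible shRNA against Urod, the uroporphyrinogen decarboxylase of haem synthesis. The cells of all 6 libraries were kept on 2 ug/mL doxycycline for 4 days to switch the hairpins on, so doxycycline and induction are shared by both groups, and no untreated culture or other hairpin was analysed here. The labels do not say that the replicates were separate cultures, and the p-values cover just the scatter among these libraries, some of which may be technical.

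The Arp2/3 complex starts a new actin filament on the side of an existing one and so builds the branched networks that push out lamellipodia and move endosomes. The actin-related proteins Arp2 and Arp3 mimic the first subunits of the new filament, and the ARPC1 to ARPC5 proteins hold them on the mother filament. The complex is inactive until nucleation-promoting factors of the WASP family bind it, and in mammals the Arp3, ARPC1 and ARPC5 positions can each be filled by either of a pair of paralogs.

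The labels were checked first. Urod stood at 95.2, 89.9 and 92.1 TPM with the scrambled hairpin, against 5.71, 5.21 and 5.35 TPM with the Urod hairpin. Across genes, the correlation of log2(TPM + 1) was 0.9958 to 0.9979 within a group and 0.9582 to 0.9601 between groups. Krt8, an epithelial keratin, was at 300.9 to 328 TPM in the scrambled and 445 to 468 TPM in the Urod shRNA libraries, whereas Krt18, Krt19 and the epithelial cadherin Cdh1 were under 1 TPM in every library. Epcam, an epithelial adhesion gene, moved the other way, from 1.77 to 2.16 TPM in the scrambled to 0.809 to 1.01 TPM in the Urod shRNA libraries. Vim, the mesenchymal intermediate filament, was at 7778 to 7878 TPM in the scrambled and 3799 to 3901 TPM in the Urod shRNA libraries. Of 9 leukocyte markers in the table, 3 had a mean of at least 1 TPM (Cd68, Lyz2 and Nckap1l). The summed list was at 107 to 108 TPM in the scrambled and 46.8 to 48.5 TPM in the Urod shRNA libraries. Most of this sum was Cd68, with means of 53.2 and 30.8 TPM, and Lyz2, with means of 49.2 and 11.4 TPM. Nckap1l did not fall, with means of 3.95 and 4.52 TPM and overlapping groups. Of the markers under 1 TPM, Itgam was higher and Coro1a, Hcls1 and Was were lower in the Urod shRNA libraries without overlap. The pan-leukocyte gene Ptprc was under 0.1 TPM throughout. The ribosomal precursor row Rn45s was at 1139 to 1499 TPM in the scrambled and 3533 to 4111 TPM in the Urod shRNA libraries. The part of these differences in the results was not tested.

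Because Actr3 and Actr3b encode the alternative Arp3 proteins, the stretches where their transcripts are most and least alike are shown first, to let the reads' power to separate them be judged. The windows have the 51-base read length of the study, capitals mark the bases that differ between the genes, and positions are counted from 1 at the first base of the start codon. The most alike window covers coding positions 238 to 288, with 7 differences, and lies in a single exon of each gene, at chr1:125411312-125411362 on the minus strand for Actr3 and chr5:25811929-25811979 on the plus strand for Actr3b (GRCm38).
Actr3: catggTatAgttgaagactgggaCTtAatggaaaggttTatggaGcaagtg
Actr3b: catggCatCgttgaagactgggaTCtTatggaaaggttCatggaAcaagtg
The least alike window covers coding positions 678 to 728, with 20 differences, and spans an exon junction in both genes.
Actr3: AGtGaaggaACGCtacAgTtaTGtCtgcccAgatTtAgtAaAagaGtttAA
Actr3b: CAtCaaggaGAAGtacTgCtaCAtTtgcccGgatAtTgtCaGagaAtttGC
Each gene has 1254 coding bases, of which 957 (76.3%) were identical. None of the 1204 aligned windows of 51 bases had 2 or fewer differences, and the median was 12. No window of the Actr3b transcript taken from GENCODE M21 was found exactly, on the same strand, in a transcript of another gene. By contrast, 1236 of the 2515 windows of the Actr3 transcript (49.1%) also occurred exactly in the transcripts of Gm15899 or Gm8822, so the level of Actr3 is uncertain to the extent that reads were placed on those copies.

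Actr3b, on chr5:25759997-25850688 of the plus strand, encodes Arp3B, whose branched networks come apart faster than those of Arp3 in human cells. Its level was 33.1, 33.1 and 32.2 TPM with the scrambled hairpin, against 2.51, 2.70 and 2.39 TPM with the Urod hairpin. The groups were far apart compared with the spread inside either of them, and every Urod shRNA library was below every scrambled library. The means were 32.8 ± 0.539 TPM and 2.53 ± 0.155 TPM (SD, n = 3 per group), a level 12.9-fold lower that left 7.72% of the scrambled mean. On the log2(TPM + 1) scale, which understates the change of low genes, the difference was -3.26 with a standard error of 0.05 (-1.77 with a pseudocount of 10), and 7 of the 11980 genes tested had a lower value. A fall of at least 8-fold on that scale was seen in 11 genes, or 0.0918% of those tested. The authors' deposited table gives Actr3b a log2 fold change of -3.68. A lower level in bulk RNA can mean fewer expressing cells or less RNA per cell, and these cannot be told apart.

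Actr3, on chr1:125392905-125435727 of the minus strand, encodes the main Arp3. It was at 342, 326 and 321 TPM with the scrambled hairpin, against 380.3, 358 and 365 TPM with the Urod hairpin. The groups did not overlap. The log2 change was 0.16 with a standard error of 0.04, which in level was a rise from 329.5 ± 11.3 to 368 ± 11.3 TPM (SD, n = 3 per group), or 1.12-fold. With quantile normalization the log2 change was 0.09.

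In level, which TPM gives per length, Actr3 rose by 38.2 TPM and Actr3b fell by 30.2 TPM. The summed level of the Arp3 position was 375, 359 and 353 TPM with the scrambled hairpin, against 383, 361 and 367 TPM with the Urod hairpin. These ranges overlapped, with means of 362 ± 11.7 and 370.3 ± 11.3 TPM (SD, n = 3 per group), a ratio of 1.02. Within the sum, the share of Actr3b was 8.83%, 9.21% and 9.12% in the scrambled libraries and 0.654%, 0.748% and 0.651% in the Urod shRNA libraries. The mean share went from 9.05 ± 0.201% to 0.685 ± 0.0548%. Actr3b was the minor Arp3 transcript in both groups, and the summed level of the position differed by 7.99 TPM, less than the SD of either group. The sum was not recomputed under another scaling, although the log2 change of Actr3 was 0.09 rather than 0.16 with quantile normalization. It also carries the uncertainty in the level of Actr3.

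**Figure D1:**
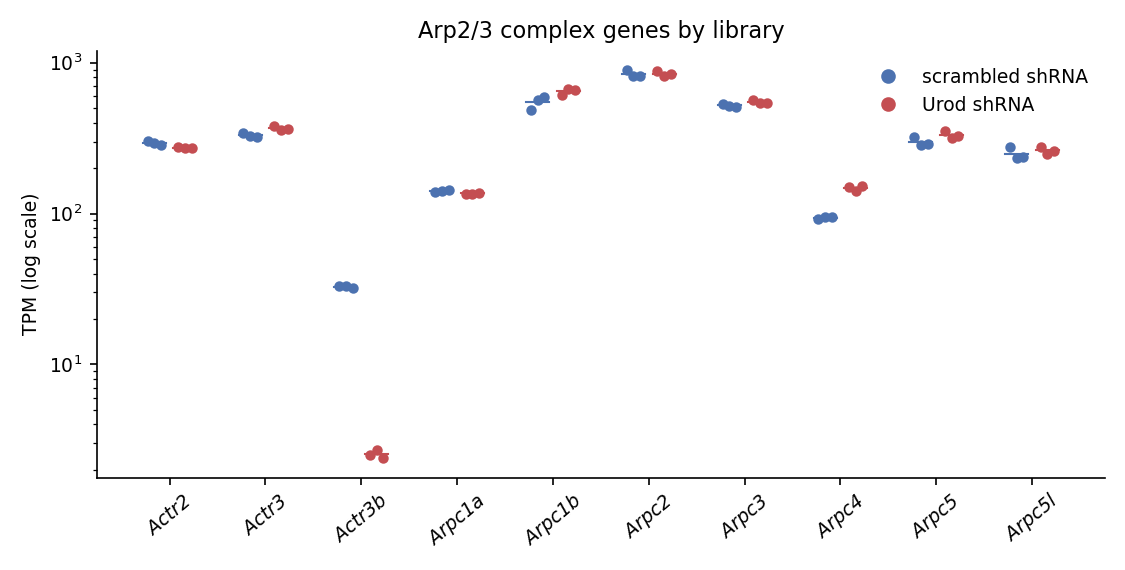
TPM (log scale, vertical axis) of each of the 10 genes in the 3 scrambled shRNA libraries (blue) and the 3 Urod shRNA libraries (red). Points are libraries and short lines are group means. Actr3b sits near 32.8 TPM in blue and 2.53 TPM in red, and Arpc4 moves from 93.8 to 148 TPM, whereas the other 8 genes have Urod shRNA means of 0.935 to 1.18 times their scrambled mean.

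Actr2, on chr11:20062304-20112913 of the minus strand, encodes Arp2, the partner of Arp3 in the nucleus of the new filament. It was at 300.5, 293 and 284 TPM with the scrambled hairpin, against 277, 270.5 and 273 TPM with the Urod hairpin. All 3 Urod shRNA libraries lay below the lowest scrambled library. The log2 change was -0.10 with a standard error of 0.03, and Actr2 no longer passed the threshold without scrambled replicate 2, Urod shRNA replicate 2 or Urod shRNA replicate 3. With quantile normalization it was -0.16. The ratio of the summed Arp3 transcripts to Actr2 was 1.24 in the scrambled and 1.35 in the Urod shRNA means.

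Arpc2 and Arpc4 form the core dimer that clamps the complex to the mother filament. Arpc2, on chr1:74236084-74268209 of the plus strand, was at 892, 816 and 816 TPM with the scrambled hairpin, against 886, 819 and 837 TPM with the Urod hairpin. The groups overlapped, and the log2 change of 0.01 had a standard error of 0.05. The sign of this small value turned without scrambled replicate 2, scrambled replicate 3 or Urod shRNA replicate 1, with values from -0.022 to 0.053 over the 6 omissions.

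Arpc4, on chr6:113378115-113390448 of the plus strand, was at 91.6, 94.6 and 95.4 TPM with the scrambled hairpin, against 149.5, 142 and 151.5 TPM with the Urod hairpin. The groups did not overlap and lay far apart for their spread. The mean rose 1.57-fold, from 93.8 ± 1.99 to 148 ± 4.94 TPM (SD, n = 3 per group), and the log2 change of 0.65 (standard error 0.03) was the highest of the 10 genes. The 3' end of Arpc4 shares 1189 bases with Ttll3, a tubulin glycine ligase gene on the same strand, and 10.5% of the 51-base windows of the Arpc4 transcript occurred in Ttll3 transcripts. Ttll3, looked up after the values of Arpc4 were seen, was at 14.9, 17.2 and 16.9 TPM with the scrambled hairpin, against 25.5, 25.3 and 28.0 TPM with the Urod hairpin, with a log2 change of 0.65 (standard error 0.07, limma adjusted p = 5.5e-05). The sources used here do not state how the authors divided reads over the shared stretch, so the values of both genes are uncertain.

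Arpc3, on chr5:122391878-122414184 of the plus strand, encodes the small subunit that joins Arp3 to the rest of the complex. It was at 535, 518.5 and 511 TPM with the scrambled hairpin, against 566, 543 and 543 TPM with the Urod hairpin. The Urod shRNA libraries were all higher, but the log2 change of 0.08 (standard error 0.03) did not pass the threshold. It passed without scrambled replicate 1, at 0.10, and was 0.002 with quantile normalization.

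At the ARPC1 position, which carries the propeller-shaped subunit that meets the activators, Arpc1a and Arpc1b are neighbours on chromosome 5, 5453 bases apart. Arpc1a, at chr5:145083830-145108761 on the plus strand, was at 139.6, 141 and 143 TPM with the scrambled hairpin, against 135, 135 and 137 TPM with the Urod hairpin. Arpc1b, at chr5:145114215-145130705 on the plus strand and known for its high level in blood cells, was at 486, 569.8 and 589 TPM with the scrambled hairpin, against 607, 669 and 658 TPM with the Urod hairpin. Neither gene's groups overlapped, but scrambled replicate 1 of Arpc1b stood well below the other scrambled libraries, which came close to the lowest Urod shRNA library. The log2 change of Arpc1a was -0.05 (standard error 0.03) and did not pass. It passed with quantile normalization, where it was -0.12, and with the replicate number as a block. Arpc1b had a log2 change of 0.24 (standard error 0.07) and passed.

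Arpc1b no longer passed without Urod shRNA replicate 2 or Urod shRNA replicate 3, and without scrambled replicate 1 its log2 change was 0.15. The share of Arpc1b in the summed pair was 77.7%, 80.2% and 80.4% in the scrambled libraries and 81.8%, 83.2% and 82.7% in the Urod shRNA libraries, higher in all of the latter. The 3' end of Arpc1b overlaps Pdap1, a gene on the opposite strand, over 1937 bases. Pdap1, looked up after the values of Arpc1b were seen, was at 123.5, 119 and 124 TPM with the scrambled hairpin, against 189, 186.5 and 187 TPM with the Urod hairpin, a log2 change of 0.61 (standard error 0.03, limma adjusted p = 9.53e-07). The libraries were strand-specific, but whether reads were counted by strand is unstated in the sources used here, so reads of this pair may not be told apart. In addition, 12.5% of the Arpc1b transcript's 51-base windows occurred in transcripts of other genes.

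At the ARPC5 position, the small subunit that tethers Arp2 and tunes the activity of the complex, both paralogs were well expressed. Arpc5, at chr1:152766542-152775597 on the plus strand, was at 321, 285 and 288 TPM with the scrambled hairpin, against 354, 316 and 324 TPM with the Urod hairpin. Arpc5l, at chr2:39005348-39015877 on the plus strand, was at 276, 233.5 and 238 TPM with the scrambled hairpin, against 278, 249 and 260.4 TPM with the Urod hairpin. Both overlapped between groups, because scrambled replicate 1 lay above 1 Urod shRNA library of Arpc5 and 2 of Arpc5l. The 5' end of Arpc5l shares 821 bases with Wdr38 on the same strand, which was under 1 TPM in every library, and 277 bases with Rpl35, a ribosomal protein gene on the opposite strand. Rpl35, looked up for this overlap, was at 926 to 1035 TPM in the scrambled and 997 to 1073 TPM in the Urod shRNA libraries (limma adjusted p = 0.137), so reads of the overlap may not be told apart. Arpc1a likewise shares 201 bases with Kpna7, on the opposite strand and under 1 TPM throughout.

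The log2 change of Arpc5 was 0.15 (standard error 0.06) and passed the threshold, but did not pass without scrambled replicate 2, scrambled replicate 3, Urod shRNA replicate 1 or Urod shRNA replicate 3, nor under 4 other settings, among them both other scalings (0.074 with quantile normalization). The log2 change of Arpc5l, 0.08 with a standard error of 0.07, did not pass. It passed without scrambled replicate 1, at 0.15, and was 0.02 with quantile normalization. The share of Arpc5l in the pair was 46.2%, 45.0% and 45.2% in the scrambled and 44.0%, 44.1% and 44.5% in the Urod shRNA libraries. These shares did not overlap, although the levels of each gene did, and the mean difference was -1.30 percentage points.

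**Figure D2:**
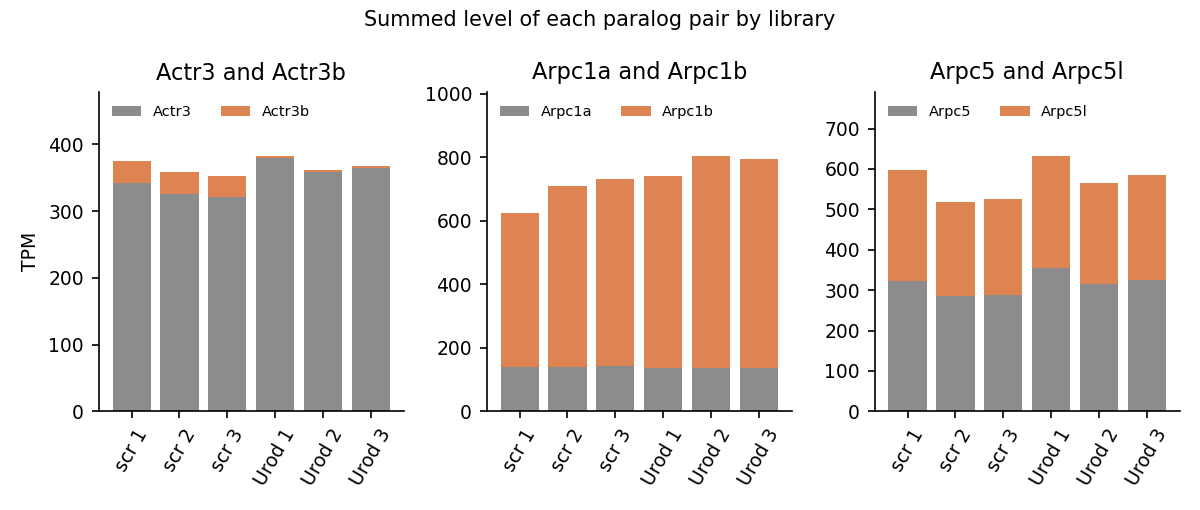
Stacked bars of TPM (vertical axis, from 0) for the paralog pairs Actr3 and Actr3b, Arpc1a and Arpc1b, and Arpc5 and Arpc5l, 1 bar per library (scr, scrambled shRNA; Urod, Urod shRNA). The orange Actr3b part shrinks from a mean of 9.05% of its bar to 0.685%, while the Arpc1b and Arpc5l parts move by 3.12 and -1.30 percentage points.

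Ordered by TPM, which is per length, Arpc2 was the highest and Actr3b the lowest in both groups. In the scrambled libraries the order was Arpc2, Arpc1b, Arpc3, Actr3, Arpc5, Actr2, Arpc5l, Arpc1a, Arpc4 and Actr3b. The ranges of Arpc1b and Arpc3, of Actr3 and Arpc5, and of Arpc5 and Actr2 overlapped there. Compared inside each library, Actr3 was above Arpc5 in every scrambled library, whereas the other pairs changed order between libraries. In the Urod shRNA libraries only the neighbours Actr2 and Arpc5l overlapped, and Arpc4 stood above Arpc1a, at 142 to 151.5 against 135 to 137 TPM. With paralogs summed into the 7 positions of the complex, the highest position, ARPC2, was 8.97 times the lowest, ARPC4, in the scrambled means and 5.74 times in the Urod shRNA means.

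By limma's moderated test with Benjamini-Hochberg adjustment over all genes, 6 of the 10 members passed the 0.05 threshold, 4 higher (Actr3, Arpc1b, Arpc4, Arpc5) and 2 lower (Actr2, Actr3b) in the Urod shRNA libraries. Over all genes tested, 74.7% passed, 38.5% higher and 36.2% lower. Groups were free of overlap for 7 of the 10 members and for 77.3% of all genes. Since the members were picked on this contrast, nothing is read from these counts. Without Urod shRNA replicate 3, 3 members passed (Actr3, Actr3b and Arpc4), with 8 passing without scrambled replicate 1. In the authors' deposited table, 5 members had a false discovery rate under 0.05, 4 higher and 1 lower.

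The sizes of the changes were mostly small beside those of other genes. The median absolute log2 change was 0.125 over the 10 members and 0.324 over all genes tested, and 8 members were below that all-gene median, the exceptions being Actr3b and Arpc4. The signed median was 0.08 for the members and 0.02 for all genes.

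**Figure D3:**
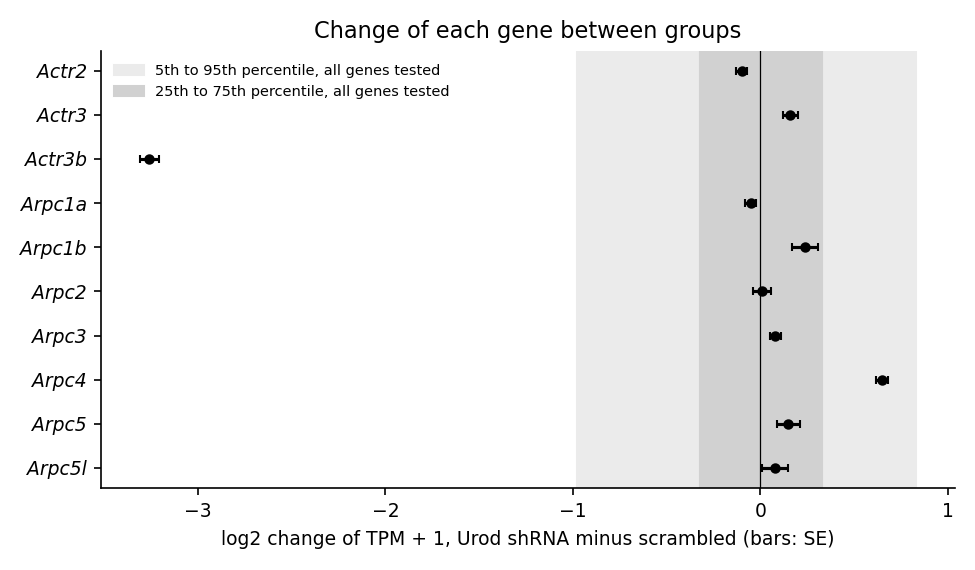
Log2 change of TPM + 1, Urod shRNA minus scrambled (horizontal axis), for each gene, with points for the estimate from 3 libraries per group and bars for the standard error. Dark and light grey bands hold the 25th to 75th (-0.32 to 0.33) and the 5th to 95th percentiles of all 11980 genes tested (-0.98 to 0.83). Actr3b at -3.26 lies outside the light band and Arpc4 at 0.65 outside the dark band, while the other 8 genes lie inside the dark band.

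The libraries of a group also differed among themselves. For 6 of the 10 genes (Actr2, Actr3, Arpc2, Arpc3, Arpc5 and Arpc5l), replicate 1 was the highest library of each group, and for Arpc1a and Arpc1b it was the lowest of each group. Over all genes tested, replicate 1 was the highest of each group for 20.4% and the lowest of each group for 36.7%. Arpc5l in replicate 1 exceeded the mean of the other libraries of its group by 17.2% in the scrambled and 9.20% in the Urod shRNA group. For Arpc1b the same quantity was -16.1% in the scrambled and -8.62% in the Urod shRNA group.

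Promoters were compared to see which sequence features the members share. Of the 10 genes, 8 had an entry in RefSeq's promoter table (GRCm38.p6), and the 250 bases before the start site were searched on both strands for 4 motifs chosen after the sequences were seen. The ETS-type site CCGGAAG (reverse CTTCCGG) was present in 5 of 8, Actr2, Actr3, Arpc1a, Arpc3 and Arpc4, and in 6.91% of 32851 promoters of the same length. The GC box GGGCGG (reverse CCGCCC) was in 5 of 8 members and 32.7% of promoters, the CCAAT box CCAAT (reverse ATTGG) in 2 of 8 and 33.8%, and the TATA box TATAAA (reverse TTTATA) in 0 of 8 and 12.4%. Motifs were counted separately, also where their matches overlap, and a match describes the sequence, not binding. The compared promoters were counted as entries, without those of a single chromosome that holds no member. They were taken without regard to expression or base content, so their shares are not matched to the members. For Actr2 and Arpc4, the bases at the start site were not found in the gene's GENCODE M21 transcripts. The promoters of Actr3, with 2 matches, and Arpc4, the member that rose most, are shown with the ETS-type letters in capitals, at chr1:125435728-125435977 on the minus strand and chr6:113377863-113378112 on the plus strand.
Actr3: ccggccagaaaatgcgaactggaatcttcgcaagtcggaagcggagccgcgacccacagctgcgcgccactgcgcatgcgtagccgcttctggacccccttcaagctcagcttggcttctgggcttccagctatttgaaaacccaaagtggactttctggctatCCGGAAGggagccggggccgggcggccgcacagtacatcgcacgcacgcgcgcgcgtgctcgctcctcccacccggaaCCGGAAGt
Arpc4: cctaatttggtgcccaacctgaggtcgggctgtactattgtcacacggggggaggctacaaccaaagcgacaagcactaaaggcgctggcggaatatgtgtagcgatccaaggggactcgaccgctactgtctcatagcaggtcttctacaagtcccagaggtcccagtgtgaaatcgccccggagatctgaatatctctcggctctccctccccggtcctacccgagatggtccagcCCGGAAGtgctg

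The genes around Actr3b were examined to see whether its fall was shared along the chromosome. The nearest gene of the table before it, the DNA repair gene Xrcc2 at a distance of 54172 bases, was at 21.4, 22.3 and 21.1 TPM with the scrambled hairpin, against 21.9, 21.6 and 21.7 TPM with the Urod hairpin. Its log2 change was 0.01 (standard error 0.04, limma adjusted p = 0.817). The nearest gene after it, Gm21671 at 97565 bases, went from 2.53 ± 0.114 to 2.87 ± 0.296 TPM (SD, n = 3 per group; limma adjusted p = 0.168). Neither of the closest neighbours passed the threshold. Farther out, Gm5862 at 166590 bases fell from 4.04 ± 0.117 to 1.85 ± 0.249 TPM, a log2 change of -0.83 (-0.24 with a pseudocount of 10; limma adjusted p = 4.64e-05), and 1700096K18Rik at 228531 bases rose from 4.72 ± 0.626 to 6.11 ± 0.897 TPM (limma adjusted p = 0.038). The call of 1700096K18Rik was lost without scrambled replicate 2, scrambled replicate 3 or Urod shRNA replicate 1, and with median-ratio scaling or no filter. Whether these predicted genes have near-identical copies was not examined. Gm1979 at 148334 bases did not pass (limma adjusted p = 0.298), and Cct8l1 at 241970 bases was too low to test.

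By the distance between 6-library profiles of log2(TPM + 1), each centred on its scrambled mean, the 5 genes most like Actr3b were Akr1cl, Prelp, Apela, Actc1 and Tgfbi, at distances of 0.249 to 0.472. Akr1cl, of the aldo-keto reductase family, went from 102 ± 5.25 to 9.07 ± 0.452 TPM (SD, n = 3 per group). Prelp, a matrix proteoglycan, went from 31.0 ± 1.64 to 2.07 ± 0.0714 TPM, nearest to Actr3b in level. Apela, a peptide hormone of the apelin receptor, went from 18.6 ± 2.12 to 0.797 ± 0.152 TPM, and Tgfbi, an extracellular matrix protein induced by TGF-beta, from 112 ± 1.44 to 13.2 ± 0.378 TPM. Actc1, the cardiac alpha-actin gene and so a member of the actin family that the complex acts on, went from 18.1 ± 1.12 to 1.34 ± 0.159 TPM, with the reservation that actin genes are alike in sequence. The difference between the groups is part of these profiles, and it is the same contrast for which Actr3b was chosen.

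Genes that act on the complex were not used to choose the members, and their changes were tested. Their lists were nevertheless made with earlier results of these data known. Of 48 such genes, 38 reached 1 TPM on average, and 11 rose, 14 fell and 13 did not pass limma's test at an adjusted p of 0.05. This gives 65.8% passing, against 74.7% of all genes tested. Groups were free of overlap for 22 of the 38, against 77.3% of all genes tested. With the formins, other nucleators and other actin-related proteins described last, 57 of 72 genes were tested, and 14 rose, 18 fell and 25 did not pass. In share, 56.1% of these passed. None of the 57 changed by 2-fold or more on the log2(TPM + 1) scale, the largest change being 0.67. This leaves out the genes too low to test. Among these, Was, Cyfip2, Rac2, Hcls1, Coro1a, Coro2a, Daam2 and Actl6b were lower in the Urod shRNA libraries without overlap, and the others overlapped. The largest ratio was that of Daam2, 14.6-fold between means of 0.299 and 0.0205 TPM, which are near the floor. A pseudocount of 10 shrank the log2 changes of low genes by over 1.5 times, as for Rac3 (-0.22), Fhod3 (-0.22) and Fmn1 (-0.11), with their direction and call kept. In the paragraphs that follow, values are mean TPM ± SD (n = 3 per group), scrambled first.

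The WASP family holds the activators that bring actin to the complex. Of 7 genes 5 were tested, of which 0 rose, 3 fell and 2 did not pass. Wasl, which encodes N-WASP, fell from 28.3 ± 0.294 to 20.8 ± 0.795 TPM (log2 change -0.43, limma adjusted p = 4.55e-05). Whamm, an activator on Golgi and autophagic membranes, fell from 23.1 ± 1.19 to 16.7 ± 0.546 TPM (log2 change -0.45, limma adjusted p = 0.000107). Wasf1, which encodes WAVE1, fell from 63.1 ± 1.30 to 53.4 ± 0.221 TPM (log2 change -0.24, limma adjusted p = 0.000213). Wasf2, which encodes WAVE2, was at 44.0 ± 5.38 and 39.0 ± 6.17 TPM and did not pass (limma adjusted p = 0.241). The blood-cell member Was was under 1 TPM in both groups.

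The WAVE proteins work in a larger complex that answers to Rac. Of 6 tested partners 2 rose, 1 fell and 3 did not pass. Nckap1, a scaffold of the complex, rose from 90.6 ± 1.70 to 117 ± 0.883 TPM (log2 change 0.36, limma adjusted p = 1.38e-05). Abi2, an Abl-interacting subunit, fell from 38.0 ± 1.10 to 28.3 ± 0.898 TPM (log2 change -0.41, limma adjusted p = 4.90e-05). Cyfip1, the Rac-binding subunit, rose from 42.3 ± 0.602 to 46.6 ± 2.17 TPM (limma adjusted p = 0.0194), but did not pass without scrambled replicate 2, Urod shRNA replicate 2 or Urod shRNA replicate 3.

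The WASH complex activates Arp2/3 on endosomes, where cargo is sorted for recycling. All 5 genes were tested, and 4 rose and 1 fell. E430025E21Rik, the older symbol of Washc5 (strumpellin), was at 51.0, 53.8 and 52.0 TPM with the scrambled hairpin, against 82.1, 84.7 and 84.0 TPM with the Urod hairpin, a log2 change of 0.67 (limma adjusted p = 1.51e-06). Fam21, the older symbol of Washc2, the tail that binds retromer, was at 45.3, 44.5 and 45.3 TPM with the scrambled hairpin, against 63.7, 67.5 and 65.5 TPM with the Urod hairpin, a log2 change of 0.53 (limma adjusted p = 5.04e-06). Both were clear of their spread in every library. A230046K03Rik, now Washc4, rose by less, with a log2 change of 0.26 (limma adjusted p = 0.00129).

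The remaining WASH genes gave calls that depended on single libraries. Wash, the activator itself (now Washc1), fell with a log2 change of -0.19 (limma adjusted p = 0.0277), and its call was lost without scrambled replicate 2, scrambled replicate 3, Urod shRNA replicate 1 or Urod shRNA replicate 3. Ccdc53, now Washc3, rose with a log2 change of 0.14 (limma adjusted p = 0.0432), and its call was lost when any of the same 4 libraries was left out, under both other scalings, without the filter and without the variance trend. The groups overlapped for both genes.

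Adaptors that carry WASP proteins to membranes and receptors moved in both directions, with 2 rising, 5 falling and 1 not passing of 8 tested. Nck2, an SH2 and SH3 adaptor, rose from 34.0 ± 2.44 to 51.5 ± 1.65 TPM (log2 change 0.59, limma adjusted p = 4.29e-05). Wipf1, which stabilises WASP proteins, rose from 28.4 ± 0.645 to 33.7 ± 0.0410 TPM (log2 change 0.24, limma adjusted p = 0.000404). Baiap2, which encodes the membrane-bending IRSp53, fell from 120 ± 10.7 to 90.0 ± 5.48 TPM (log2 change -0.41, limma adjusted p = 0.0013). Nck1, the paralog of Nck2, fell with a log2 change of -0.21 (limma adjusted p = 0.0035), the opposite direction to Nck2.

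Of the GTPases that switch these activators on, 1 rose, 2 fell and 1 did not pass. Rac3 fell from 5.24 ± 0.395 to 3.10 ± 0.254 TPM (log2 change -0.61, limma adjusted p = 0.000201). Cdc42, the partner of N-WASP, fell from 574 ± 22.7 to 533 ± 10.6 TPM (limma adjusted p = 0.0279), and Rhog rose from 43.7 to 46.7 TPM (limma adjusted p = 0.0352). Cdc42 did not pass without scrambled replicate 1, scrambled replicate 2, Urod shRNA replicate 2 or Urod shRNA replicate 3, nor without the variance trend, and Rhog passed of the 6 omissions only without Urod shRNA replicate 1. Rac1 was at 289.5, 267 and 264 TPM with the scrambled hairpin, against 286, 271 and 271 TPM with the Urod hairpin, which overlapped (limma adjusted p = 0.774).

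Cttn, the branch stabiliser cortactin and the 1 tested gene of its list, rose from 151 ± 4.80 to 182 ± 6.59 TPM (log2 change 0.27, limma adjusted p = 0.000389). Of 9 tested inhibitors and debranching factors, 1 rose, 2 fell and 6 did not pass. Gmfb, a debranching factor, rose from 102 ± 2.59 to 128 ± 1.92 TPM (log2 change 0.32, limma adjusted p = 4.50e-05). 2610034B18Rik, now Arpin, an inhibitor of the complex, fell from 34.1 ± 0.484 to 30.9 ± 1.23 TPM (limma adjusted p = 0.0148), but did not pass without scrambled replicate 2 or Urod shRNA replicate 3. Coro7, a coronin of the Golgi, fell from 17.6 ± 1.54 to 14.8 ± 1.37 TPM (limma adjusted p = 0.0343) with overlapping groups, and did not pass without the filter on low values or without scrambled replicate 2, scrambled replicate 3, Urod shRNA replicate 1 or Urod shRNA replicate 3.

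Formins and the other nucleators, which make unbranched filaments without Arp2/3, were set beside the complex. Of 12 tested, 1 rose, 3 fell and 8 did not pass. Diap1 fell from 63.3 ± 3.35 to 42.2 ± 3.14 TPM (log2 change -0.58, limma adjusted p = 8.72e-05), while its paralog Diap3 was at 41.6 ± 2.14 and 41.5 ± 2.21 TPM (limma adjusted p = 0.961). Fhod3 fell from 11.8 ± 0.184 to 8.70 ± 0.234 TPM (log2 change -0.40, limma adjusted p = 0.000131), and Fmn1 from 3.83 ± 0.143 to 2.79 ± 0.170 TPM (log2 change -0.35, limma adjusted p = 0.0017).

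Among the actin-related proteins outside the complex, no tested gene showed a change near that of Actr3b in size. Of 7 tested, 2 rose, 1 fell and 4 did not pass, with log2 changes from -0.13 to 0.22. Actl6b, at 0.251 ± 0.142 and 0.0506 ± 0.0199 TPM without overlap, was too low to test. Actl6a, a subunit of chromatin remodellers, rose from 102 ± 1.45 to 119 ± 2.00 TPM (limma adjusted p = 0.000256). Actr8, of the INO80 remodeller, rose from 33.8 ± 1.48 to 37.4 ± 1.33 TPM (limma adjusted p = 0.0222), and Actr1a, the dynactin filament subunit, fell from 188 ± 6.64 to 171 ± 8.42 TPM (limma adjusted p = 0.0247). Actr8 did not pass under both other scalings or without scrambled replicate 2, scrambled replicate 3 or Urod shRNA replicate 1, and Actr1a lost its call when any of these 3 libraries or Urod shRNA replicate 3 was left out.

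**Figure D4:**
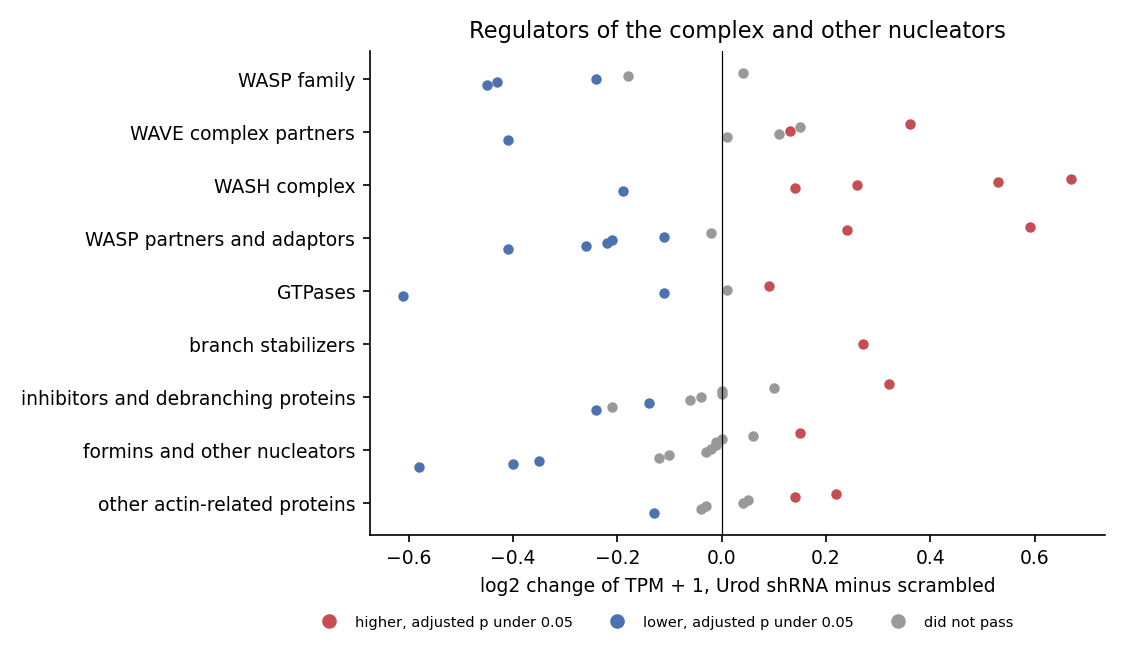
Log2 change of TPM + 1, Urod shRNA minus scrambled (horizontal axis), for the 57 tested genes that act on the complex or nucleate actin without it, 1 row per list and 1 point per gene. Red points rose and blue points fell at a limma adjusted p under 0.05, and grey points did not pass. All points lie between -0.61 and 0.67.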

How the data were processed

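RNA was measured in 3 scrambled and 3 Urod shRNA libraries, grouped by their titles. Per the labels' protocols, polyadenylated RNA was selected, strand-specific libraries were read as 51-base single ends, reads were mapped to mm10 with TopHat, and alignments of mapping quality under 10 were discarded, which can lower genes with near-identical copies. Abundance came from Cufflinks and Cuffdiff 2.1.1, per the submitters' processing notes. The deposited table is named for normalized counts, but each column sums to 1000000, so its values were read as TPM, and absolute depth is unknown. The authors' deposited comparison gives log2 fold changes, log2 CPM, a test score and p-values with their false discovery rates.

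The 27 rows whose names had become dates, 0.231% to 0.241% of each library's TPM, were left out. Values were tested as log2(TPM + 1) in genes averaging 1 TPM or more, with limma 3.58.1 in R 4.3.3 (empirical Bayes with a trend, two-sided, Benjamini-Hochberg over 11980 genes), which was tested on simulated data. The alternatives were other pseudocounts, filters and scalings, no trend, a replicate block and each library left out. Gene positions and transcripts are from GENCODE M21 (GRCm38), promoters from RefSeq (GRCm38.p6), and sequences were aligned with Biopython 1.88. The text names all members, Urod, up to 3 genes per regulator list with the smallest adjusted p, the 5 profiles nearest to Actr3b and its 3 neighbours on each side. Other genes named were chosen after their values were seen. The members and lists were chosen with earlier results of these data known.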

Additional observations from a re-analysis of the deposited data

How the results depend on the processing

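Over 8 other settings, 6897 to 10286 genes passed, against 8945, and 8263 to 8962 with 1 library left out. Of the 10 members 6 passed, 5 to 9 under other settings and 3 to 8 with 1 library left out, and of the regulators 32 passed, 30 to 40 and 23 to 33. Of the members passing, Actr3, Actr3b and Arpc4 passed under each setting and omission run, a description only, since the members were picked on this contrast. Actr3b ranged from -3.64 to -1.77 on the log2 scale, the latter with a pseudocount of 10, and its share of the Arp3 sum differed by -8.48 to -8.29 percentage points with 1 library left out. Arpc2 turned sign to -0.005 under median-ratio scaling and ranged from -0.022 to 0.053 with 1 library left out, and the cause was not tested. The labels do not say what a replicate number shares. The check for pairing, a correlation over 0.1 in each pair, was met for numbers 1 and 2 and narrowly missed for number 3. Same-numbered libraries correlated in their deviations from the group means by 0.418, 0.214 and 0.095, against -0.335 to 0.203 for unlike numbers. Scrambled replicate 3 correlated more with Urod shRNA replicate 2 (0.203) than with its own number. Pairing is thus unsettled, and the main fit did not use it. With the number as a replicate block, 9882 genes, 9 members (Arpc1a, Arpc3 and Arpc5l added) and 40 regulators passed. With 3 libraries per group and no read counts, depth cannot be weighed. The values are shares of each library, so a change in total RNA per cell cannot be seen.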
